A study of Mus musculus with 24 samples.

Results

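The RNA of 10 target genes of the tumour suppressor p53 was followed through sorted intestinal epithelium of mouse chimeras and of wild-type mice. The genes are Cdkn1a, Mdm2, Ccng1, Trp53inp1, Phlda3, Eda2r, Zmat3, Bbc3, Bax and Sesn2. They were taken by symbol from the 24421 genes measured, as well-known targets that p53 switches on after DNA damage, and all 10 were found. Colon and ileum of the same 12 C57BL/6 mice, aged 8 to 14 weeks, were sorted for cells that carried a tomato reporter under Villin, a gene of the intestinal brush border, and lacked the leukocyte surface protein CD45. This gave 24 libraries in 8 groups. KO early is a group of knockout chimeras 2 weeks after chimerism (4 mice), KO late is a group of knockout chimeras at 8 weeks (3 mice), WT irradiated is a group of irradiated wild-type mice, also labelled 8 weeks after chimerism (2 mice), and WT non-irradiated is a group of untreated wild-type mice (3 mice). The sample labels say KO without naming the gene, while the series title speaks of gut macrophages that lack IL-10Rα, and the labels do not say whether the sorted epithelium itself carries the deletion. The labels name irradiation for the WT irradiated mice only, and give no dose. They do not say which marrow the irradiated wild-type mice received. Every sample carries the reporter, so the control mice share it with the chimeras.

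p53 is a transcription factor that is held at a low level in unstressed cells, largely because Mdm2, itself a p53 target, marks it for destruction. DNA breaks, such as those made by ionising radiation, stabilise p53, which then binds response elements near its targets and raises genes of cell cycle arrest, cell death and repair. In the intestine the dividing cells of the crypt are known to respond to radiation within hours by p53-dependent arrest and death, and the epithelium renews itself within days.

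The promoters of 8 of the 10 genes were at hand in RefSeq sequence of build GRCm38.p6, as windows of 300 bases running from 250 before to 50 after a gene's start. They are shown here because the response element is what joins these genes into a group. The p53 consensus of a pair of 10-base repeats placed side by side without a spacer, which reads alike on both strands, was searched for in all windows. Cdkn1a, at the farther upstream of its RefSeq starts (chr17:29090729-29091028, plus strand), and Ccng1 (chr11:40755237-40755536, minus strand) each held a 20-base stretch that was 1 base off the consensus. Both windows are printed 5′ to 3′ on the strand of the gene, with that stretch in capitals.
Cdkn1a: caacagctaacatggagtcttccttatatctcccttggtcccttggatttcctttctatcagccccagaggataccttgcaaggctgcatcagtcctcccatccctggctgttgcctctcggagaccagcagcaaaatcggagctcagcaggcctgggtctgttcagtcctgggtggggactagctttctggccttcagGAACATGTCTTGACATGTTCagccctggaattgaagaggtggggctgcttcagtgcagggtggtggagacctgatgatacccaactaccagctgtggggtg
Ccng1: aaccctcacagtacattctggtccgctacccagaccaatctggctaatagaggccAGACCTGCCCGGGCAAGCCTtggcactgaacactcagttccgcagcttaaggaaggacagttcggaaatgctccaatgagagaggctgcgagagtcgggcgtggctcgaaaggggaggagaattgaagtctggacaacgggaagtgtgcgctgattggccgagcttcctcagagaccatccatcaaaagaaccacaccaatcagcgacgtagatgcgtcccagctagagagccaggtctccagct
A stretch with at most 1 base off was present in 29 of 32851 mouse promoter windows (0.0883%). The stretch began 51 bases before this farther upstream start of Cdkn1a and 195 bases before the start of Ccng1. Bax (chr7:45466849-45467148, minus strand) and Bbc3 (chr7:16309333-16309632, plus strand) held weaker matches, each 3 bases off, and a match at least that close was present in 2067 windows (6.29%).
Bax: AGCATATCCCAGGCAAGCTT
Bbc3: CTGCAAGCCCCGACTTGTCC
The best match in the windows of Mdm2, Phlda3, Sesn2 and Eda2r was 5 or 6 bases off. It was 5 bases off at the other Cdkn1a start (chr17:29093519-29093818, plus strand) and 5 or 6 off at the further Bbc3 starts. This says only that those letters are not in these windows.

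The reads recovered per library were 8.32 M to 18.7 M, with a median of 13.2 M. Levels are given as normalised reads, the deposited values, in which each library's reads were scaled by its own factor, so that 1 read was worth 0.698 to 2.22 normalised reads. The epithelial markers Epcam and Vil1 had at least 10192.5 normalised reads in every library, while Ptprc, which encodes CD45, had 156.7 to 472.2 and Col1a1, a fibroblast collagen, 5.1 to 29.2. Other stromal and endothelial markers were higher than Col1a1, with 12.7 to 246.4 for Dcn, 45.4 to 190.5 for Pecam1 and 7.2 to 174.5 for Col3a1. The ribosomal transcript Rn45s took 0.0642 to 29.4% of reads, most in the ileum of KO early mouse 100 and of WT non-irradiated mouse 73. Receptor reads, meaning reads in 1462 genes for olfactory and vomeronasal receptors, which are best known from sensory neurons, served as a quality measure and were 232 to 1052 RPM (reads scaled to the library's total) in colon and 167 to 711 RPM in ileum. Trp53, the gene of p53 itself, had 49.3 to 218.7 normalised reads.

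The 10 genes lay at very different levels. Per kilobase of exon, the median normalised reads in colon were 538 for Cdkn1a, which encodes p21, an inhibitor of cyclin-dependent kinases that stops the cell cycle. Next came Trp53inp1, a stress protein that promotes autophagy and cell death (336), Mdm2 (278), Ccng1, the cyclin G1 that is thought to act on Mdm2 through the phosphatase PP2A (245), and Bax, a BCL2 family protein that opens the outer mitochondrial membrane (105). Much lower were Sesn2, a sestrin that restrains mTORC1 (28.1), Bbc3, the death-promoting BCL2 family protein PUMA (26.2), and Zmat3, a zinc finger protein that binds RNA (22.9). Eda2r, the receptor of the ligand EDA-A2 (7.33), and Phlda3, an inhibitor of the kinase AKT (3.48), were at the bottom. In ileum the order was Cdkn1a (400), Mdm2 (350), Ccng1 (208), Bax (110), Trp53inp1 (73.8), Sesn2 (28.0), Bbc3 (24.9), Zmat3 (22.7), Eda2r (3.89) and Phlda3 (2.44), on the same per-kilobase scale. Some neighbours in this order were not apart. The higher of the pair was above the lower in fewer than 10 of 12 libraries for Cdkn1a and Trp53inp1 (9), Trp53inp1 and Mdm2 (8), Mdm2 and Ccng1 (7), Sesn2 and Bbc3 (8) and Bbc3 and Zmat3 (8) in colon, and for Cdkn1a and Mdm2 (8), Bax and Trp53inp1 (9), Sesn2 and Bbc3 (7) and Bbc3 and Zmat3 (7) in ileum. The other neighbours kept their order in 11 or 12 of 12 libraries. Phlda3 rested on 1 to 9 reads per library and did not pass the minimum of 10 normalised reads in 2 libraries of a tissue. It had 1.2 to 10.2 normalised reads in colon and 1.6 to 11.9 in ileum, so 9 of the 10 genes were tested within a tissue.

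**Figure D1:**
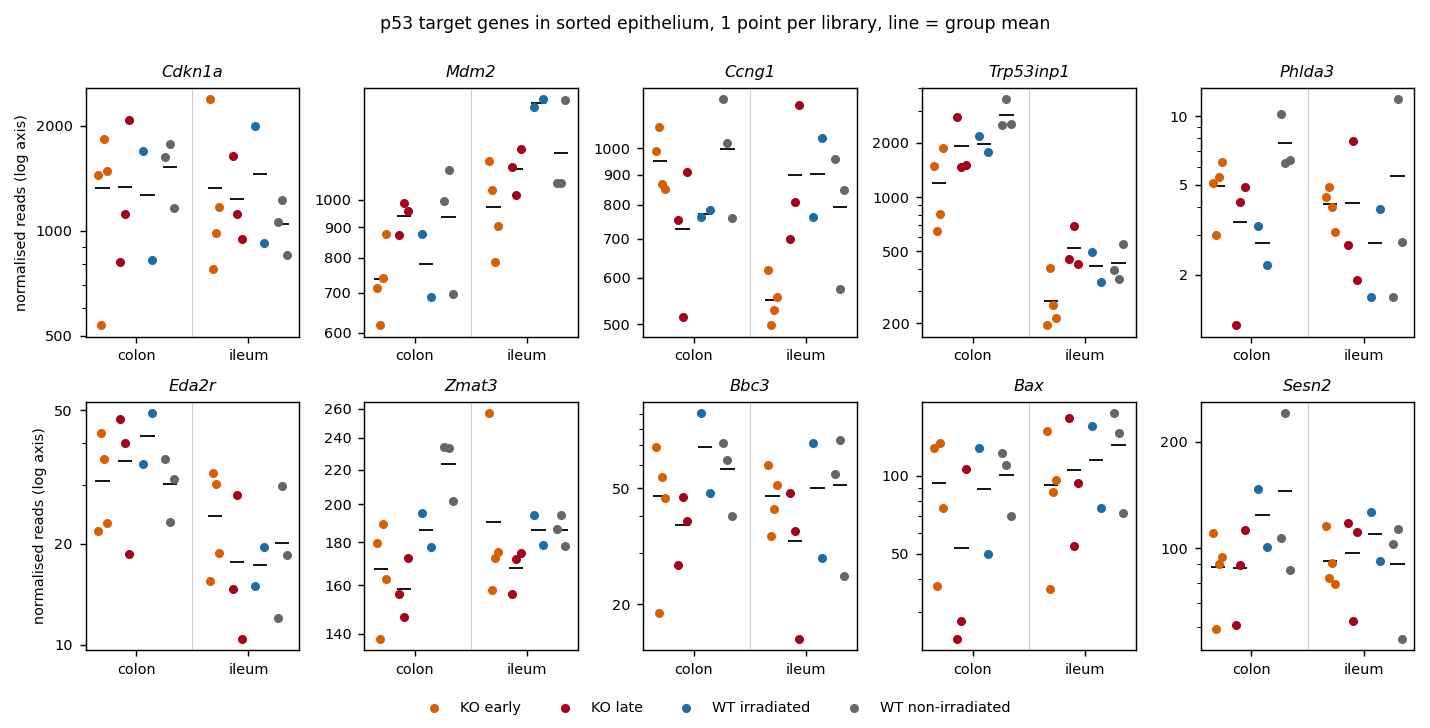
Normalised reads of each p53 target gene in each of the 24 libraries, on log axes that differ between panels. Points are libraries, coloured by group, and the short lines are group means. The groups overlap in most panels. Trp53inp1 and Zmat3 in colon have all 3 WT non-irradiated libraries above the 4 KO early and the 2 WT irradiated libraries. The 3 KO late colon libraries are below the WT non-irradiated ones for Zmat3 as well. Trp53inp1 is higher in colon than in ileum in each mouse.

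The first comparison asked whether irradiated wild-type mice at 8 weeks still differed from mice that were never irradiated. No p53 target differed past the threshold in either tissue, with 7 of 9 estimates below 0 in colon and 5 of 9 above 0 in ileum. Cdkn1a, the most used readout of p53 activity, had 1696.3 and 826.0 normalised reads in WT irradiated colon, against 1624.6, 1769.1 and 1162.8 in WT non-irradiated colon. In ileum it had 1991.7 and 921.9 normalised reads in WT irradiated mice, against 1059.2, 1227.3 and 853.6 in WT non-irradiated mice. The groups overlapped in both tissues, and in each the lower irradiated library was mouse 61. The log2 fold change on log2(value + 1) was -0.34 ± 0.50 in colon (SE, 95% interval -1.42 to 0.75) and 0.39 ± 0.43 in ileum (-0.53 to 1.31). With 2 irradiated mice such intervals are wide, and a difference within them was not detectable here.

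Mdm2 had 878.2 and 687.7 normalised reads in WT irradiated colon, against 995.1, 1119.3 and 695.9 in WT non-irradiated colon. In ileum Mdm2 had 1427.2 and 1471.4 normalised reads in WT irradiated mice, against 1065.6, 1066.2 and 1464.5 in WT non-irradiated mice. Both irradiated ileum libraries were thus near the highest non-irradiated one. The fold changes of Mdm2 were -0.24 ± 0.26 in colon and 0.29 ± 0.23 in ileum (log2, SE). Bax had 127.6 and 49.8 normalised reads in WT irradiated colon, against 122.3, 110.4 and 69.9 in WT non-irradiated colon, and its log2 fold change was -0.29 ± 0.66. For Trp53inp1 and Zmat3 the colon groups did not overlap. Trp53inp1 had 1764.2 and 2163.0 normalised reads in WT irradiated colon, against 2508.9 to 3482.2 in WT non-irradiated colon (-0.52 ± 0.42). Zmat3 had 177.7 and 195.1, against 201.7 to 234.4 (-0.26 ± 0.24). In ileum the groups overlapped for both genes. Across the 9 genes tested, log2 fold changes ran from -0.52 (Trp53inp1) to 0.46 (Eda2r) in colon and from -0.18 (Bax) to 0.39 (Cdkn1a) in ileum. Their median was -0.26 in colon, against 0.01 over all genes tested, and 0.00 in ileum, against 0.02 over all genes. By limma with Benjamini-Hochberg adjustment over all genes, 0 of 9 p53 targets were called in each tissue, where the background was 0 of 19145 genes (0%) in colon and 0 of 19122 (0%) in ileum. None of the 9 had an unadjusted p under 0.05, while 66 genes in colon and 187 in ileum did. edgeR called 0 genes in each tissue, and DESeq2 called 0 in colon and 2 in ileum, none of them a p53 target of the 9.

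**Figure D2:**
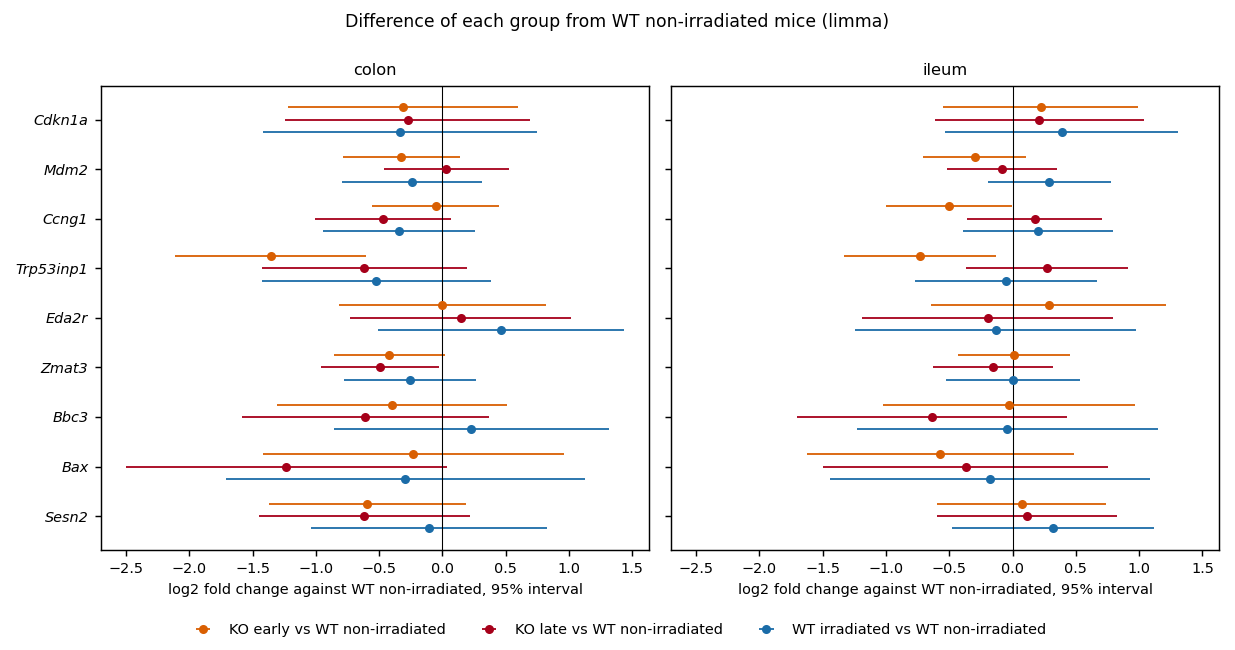
Log2 fold changes of 9 p53 target genes in KO early, KO late and WT irradiated mice, each against WT non-irradiated mice, in colon (left) and ileum (right). Points are limma estimates and bars are 95% intervals. Most bars cross 0. Those of Trp53inp1 in KO early (both tissues), Ccng1 in KO early ileum and Zmat3 in KO late colon stay below 0, though none passed the threshold after adjustment.

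The knockout chimeras at 2 weeks, the group nearest in time to the making of the chimeras, had no p53 target called higher in colon. All 9 fitted differences from WT non-irradiated colon were at or below 0, with that of Eda2r rounding to 0. The largest estimate was that of Trp53inp1, which had 1486.6, 648.0, 800.1 and 1868.2 normalised reads in KO early colon, against 2508.9, 3482.2 and 2536.1 in WT non-irradiated colon. Every KO early library was below every WT non-irradiated library. The log2 fold change was -1.36 ± 0.35 (SE, 95% interval -2.11 to -0.60), with an unadjusted p of 0.00178 and an adjusted p of 0.125 by limma, so it was not called. DESeq2 called it, at -1.21 with an adjusted p of 0.0413, and so did limma without WT non-irradiated mouse 75 (-1.43, adjusted p = 0.0401). The share of all genes called without that mouse is not given here. In a sorted bulk sample, fewer cells with the RNA and less RNA per cell cannot be told apart. In colon limma called 0.559% of the 19145 genes tested in KO early against WT non-irradiated mice (107 genes), and 0 of the 9 p53 targets. DESeq2 called 501 of the 19145 genes there, and 1 of the 9 p53 targets.

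The values of Cdkn1a, Mdm2 and Ccng1 in KO early colon overlapped those of the untreated mice. Cdkn1a had 1439.4, 535.5, 1837.1 and 1484.4 normalised reads in KO early colon, against 1624.6, 1769.1 and 1162.8 in WT non-irradiated colon. The low value was that of mouse 117, and the log2 fold change was -0.31 ± 0.42 (SE). Mdm2 had 714.2, 618.0, 741.8 and 878.6 normalised reads in KO early colon, against the WT non-irradiated values given above, at -0.33 ± 0.22. Ccng1 had 989.1, 1085.9, 866.9 and 852.8 normalised reads in KO early colon, against 1213.0, 1021.4 and 760.2 in WT non-irradiated colon, at -0.05 ± 0.23. The 95% intervals of all 3 estimates included 0, so none of these differences was resolved, and that of Mdm2 ran from -0.79 to 0.14.

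Among the genes of cell death and stress in KO early colon, Bax had 128.2, 37.5, 133.6 and 75.4 normalised reads, and its log2 fold change against WT non-irradiated colon was -0.23 ± 0.55. Bbc3 had 69.1, 18.7, 54.4 and 46.1 normalised reads in KO early colon, against 71.4, 62.2 and 40.2 in WT non-irradiated colon. Mouse 117 was the lowest of the 4 for both, as for Cdkn1a. Sesn2 had 110.5, 59.2, 90.1 and 94.2 normalised reads in KO early colon, against 107.0, 241.0 and 86.8 in WT non-irradiated colon, where mouse 73 alone was high. Zmat3 had 179.6, 138.0, 189.5 and 162.6 normalised reads in KO early colon, against 234.4, 233.2 and 201.7 in WT non-irradiated colon. Those groups did not overlap, but the difference was small, at -0.42 ± 0.20 with an adjusted p of 0.456 by limma. The median over the 9 p53 targets was -0.33, against 0.07 over all genes tested. Marker lists also had shifted estimates in the same libraries. All 8 genes of the tissue dissociation stress response, such as Fos and Jun, had fitted differences below 0 (median -0.65), with a summed level of 4879 to 13379 normalised reads in KO early colon and 9583 to 17960 in WT non-irradiated colon, and none was called. The 12 cell cycle genes were all above 0 (median 0.54), with none called. Of 9 leukocyte markers 7 were above 0 and none was called, with sums of 490.7 to 644.1 in KO early colon and 351.6 to 795.4 in WT non-irradiated colon, and Ptprc was not at 0 in any library. Rn45s took 10.03, 0.126, 1.04 and 0.163% of reads in KO early colon, against 16.1, 20.0 and 0.105% in WT non-irradiated colon. The part of these lists and of Rn45s in the p53 target values was not tested.

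At 8 weeks KO late colon had no p53 target called either. The background was 2.49% of 19145 genes called (476 genes), and 0 of the 9 p53 targets were among them. Bax had the largest estimate. It had 23.5, 27.5 and 106.5 normalised reads in KO late colon, against 122.3, 110.4 and 69.9 in WT non-irradiated colon, a log2 fold change of -1.23 ± 0.59 (adjusted p = 0.168 by limma). KO late mice 49 and 50 were low, and mouse 57 was within the range of the untreated mice. The colon libraries of mice 49 and 50 also had the most receptor reads of all libraries, at 1052 and 1026 RPM, while KO late mouse 57 had 752 and the WT non-irradiated mice had 232, 233 and 682. When limma took receptor reads as a covariate, the fold change of Bax was 0.83 (adjusted p = 0.441), of the opposite sign.

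Cdkn1a had 812.6, 1115.0 and 2081.1 normalised reads in KO late colon, 2 of them below the WT non-irradiated range and 1 above it, and a log2 fold change of -0.27 ± 0.45. Mdm2 was tighter, with 872.0, 986.8 and 956.7 normalised reads, at 0.03 ± 0.23 against WT non-irradiated colon. Zmat3 had 156.1, 146.6 and 172.6 normalised reads in KO late colon, all below the 3 WT non-irradiated values, at -0.49 ± 0.22 (unadjusted p = 0.0408, adjusted p = 0.145 by limma). Trp53inp1 had 2767.2, 1466.4 and 1511.0 normalised reads in KO late colon, so mouse 49 lay within the untreated range and the other two below it, at -0.62 ± 0.38. The median over the 9 genes was -0.49, against -0.03 over all genes tested, and 7 of 9 estimates were below 0. In the fit with that covariate, Cdkn1a was at 1.20, Sesn2 at 0.55 and Bbc3 at 0.64 on the log2 scale, all above 0 and none called. Taking KO early, KO late and WT irradiated mice together, each group with equal weight, against WT non-irradiated colon, Trp53inp1 was at -0.83 ± 0.31 and Zmat3 at -0.39 ± 0.18, with adjusted p of 0.437 and 0.451 by limma, and 0.162% of genes were called (31 genes), none of them among the 9.

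In ileum the 2-week chimeras had lower estimates for Trp53inp1 and Ccng1 than untreated mice, and neither passed the threshold. Trp53inp1 had 195.1, 402.3, 253.9 and 212.9 normalised reads in KO early ileum, against 395.8, 353.4 and 547.2 in WT non-irradiated ileum. Mouse 117 overlapped the untreated mice and the other 3 were below them, at a log2 fold change of -0.73 ± 0.28 (unadjusted p = 0.0206, adjusted p = 0.247 by limma). Ccng1 had 618.5, 497.6, 528.0 and 555.2 normalised reads in KO early ileum, against 959.8, 574.1 and 847.1 in WT non-irradiated ileum, at -0.50 ± 0.23 (adjusted p = 0.272 by limma). Mdm2 had 1159.4, 1037.6, 787.9 and 905.8 normalised reads in KO early ileum, at -0.30 ± 0.19 against WT non-irradiated ileum.

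Cdkn1a had 2383.1, 777.8, 983.4 and 1169.9 normalised reads in KO early ileum, at 0.22 ± 0.36 against WT non-irradiated ileum. The high value was that of mouse 100, whose library gave 29.4% of its reads to Rn45s, and without that mouse the estimate was -0.10. When limma took receptor reads as a covariate it was 1.03 with an adjusted p of 0.0176, the only p53 target called against WT non-irradiated mice in that fit. The share of all genes called in that fit is not given here. Receptor reads in ileum were 277, 711, 684 and 506 RPM in KO early mice 100, 117, 118 and 120, against 200, 328 and 395 in the WT non-irradiated mice. Zmat3 was also highest in mouse 100, with 257.1 normalised reads, while its other 11 ileum libraries had 156.2 to 193.9. Bax (-0.57 ± 0.49), Bbc3 (-0.03 ± 0.46), Sesn2 (0.07 ± 0.31) and Eda2r (0.29 ± 0.43) had intervals that included 0. No gene of 19122 was called by limma in KO early against WT non-irradiated ileum (0%), where 3492 genes and 2 of the 9 p53 targets had an unadjusted p under 0.05. edgeR called 2 genes there and DESeq2 360, no p53 target of the 9 among them. In the same libraries the 4 stem cell markers, such as Lgr5 and Olfm4, summed to 1516 to 3186 normalised reads in KO early ileum and to 4847 to 8733 in WT non-irradiated ileum, with all 4 estimates below 0 (median -1.17) and none called, and Ascl2 at 0 in 1 library of the 24. The 12 cell cycle genes (median -0.78) and the 8 dissociation stress genes (median -0.72) were likewise all below 0, and 7 of 8 stromal and endothelial markers above 0 (median 0.58), with none called. The stem cell sums given here and below can rest largely on Olfm4. Over all libraries it reached 7070.6 normalised reads, against 1172.8 for Smoc2, 540.8 for Lgr5 and 28.8 for Ascl2. Rn45s took 29.4, 3.81, 17.0 and 19.3% of reads in KO early ileum, against 0.448, 25.4 and 4.46% in WT non-irradiated ileum. The part of these lists and of Rn45s in the p53 target values was not tested.

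KO late ileum was close to untreated ileum for most of the genes. The largest estimate was that of Bbc3, with 48.1, 35.7 and 15.2 normalised reads in KO late ileum, against 56.1, 73.1 and 24.9 in WT non-irradiated ileum, at -0.64 ± 0.50. Cdkn1a had 1640.7, 1112.6 and 945.9 normalised reads in KO late ileum (0.21 ± 0.38), and Trp53inp1 had 456.6, 691.9 and 426.4 (0.27 ± 0.30). No gene was called by limma (0% of 19122), 653 genes and none of the 9 p53 targets had an unadjusted p under 0.05, edgeR called 0 genes and DESeq2 called 26. The mean of KO early, KO late and WT irradiated ileum against WT non-irradiated ileum gave estimates from -0.37 (Bax) to 0.27 (Cdkn1a), again with no gene called by limma (0%), 528 genes at an unadjusted p under 0.05, none by edgeR and 28 by DESeq2.

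Time after chimerism was compared directly between the knockout groups. In ileum Trp53inp1 was higher in each KO late mouse, with 456.6, 691.9 and 426.4 normalised reads, than in any KO early mouse, with 195.1, 402.3, 253.9 and 212.9. The log2 fold change was 1.00 ± 0.28 (95% interval 0.40 to 1.60, unadjusted p = 0.00306, adjusted p = 0.0865 by limma). DESeq2 gave 0.91 with an adjusted p of 0.0498, and limma with receptor reads as a covariate gave 1.21 with an adjusted p of 0.0180. The share of all genes called with that covariate is not given here. Ccng1 had 698.2, 809.0 and 1187.1 normalised reads in KO late ileum, also above all 4 KO early libraries, at 0.67 ± 0.23 (adjusted p = 0.122 by limma). The background in that comparison was 0% called by limma, with 4697 genes at an unadjusted p under 0.05, while edgeR called 0 genes and DESeq2 called 1342. Other measures differed between the same libraries, with no marker called by limma. All 12 cell cycle genes (median 1.06) and all 4 stem cell markers (median 0.91) were above 0, the stem cell markers with sums of 3341 to 5917 normalised reads in KO late ileum and 1516 to 3186 in KO early ileum. Of 8 dissociation stress genes 7 were above 0 (median 0.93), with sums of 6515 to 13932 in KO late ileum and 3447 to 8049 in KO early ileum. All 8 stromal and endothelial markers were below 0 (median -0.75), with sums of 225 to 297 in KO late ileum and 317 to 525 in KO early ileum. Rn45s took 13.6, 11.3 and 0.283% of reads in KO late ileum, against 29.4, 3.81, 17.0 and 19.3% in KO early ileum. The part of these measures in the values of Trp53inp1 and Ccng1 was not tested. In colon Trp53inp1 was at 0.74 ± 0.35 and Mdm2 at 0.36 ± 0.22, with 0.00522% of genes called (1 gene), which was not a p53 target of the 9. Cdkn1a was at 0.04 ± 0.42 in colon and -0.01 ± 0.36 in ileum, so the estimates for the gene at 2 and 8 weeks were nearly equal, with intervals of -0.87 to 0.94 in colon and -0.78 to 0.76 in ileum.

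The irradiated wild-type mice served as the second baseline for the knockout groups. They are labelled 8 weeks after chimerism and the KO early mice 2 weeks. In KO early against WT irradiated mice, knockout and time after chimerism therefore cannot be told apart. In KO early ileum, Mdm2 was at -0.59 ± 0.21 (unadjusted p = 0.0159), Ccng1 at -0.70 ± 0.26 (unadjusted p = 0.0187) and Trp53inp1 at -0.68 ± 0.32 (unadjusted p = 0.0498) against WT irradiated ileum, with adjusted p of 0.165, 0.166 and 0.201 by limma. Every KO early library was below both WT irradiated libraries for Mdm2 and Ccng1, and mouse 117 overlapped them for Trp53inp1. The same libraries did not overlap in several other measures. Rn45s took 3.81 to 29.4% of reads in KO early ileum, against 0.549 and 0.130% in WT irradiated ileum. Stem cell markers summed to 1516 to 3186 normalised reads in KO early ileum and to 4685 to 5005 in WT irradiated ileum, and stromal and endothelial markers to 317 to 525 in KO early ileum and to 187 to 297 in WT irradiated ileum. All 4 stem cell markers (median -0.95), all 12 cell cycle genes (median -0.91) and all 8 dissociation stress genes (median -0.56) were below 0, while 7 of 8 stromal and endothelial markers (median 1.01) and 6 of 8 leukocyte markers tested (median 0.54) were above 0, with none called. The part of these measures was not tested. No gene was called there by limma (0% of 19122), 4752 genes had an unadjusted p under 0.05, edgeR called 0 genes and DESeq2 called 191. In colon 0.204% of genes were called in KO early and 1.03% in KO late against WT irradiated mice, and none of the 9 p53 targets was. The estimates in KO late against WT irradiated mice ran from -0.94 (Bax) to 0.27 (Mdm2) in colon and from -0.59 (Bbc3) to 0.32 (Trp53inp1) in ileum, with 0% of genes called in ileum by limma, edgeR and DESeq2 alike and 157 genes at an unadjusted p under 0.05. The comparisons with a shared baseline use the same WT libraries, so their estimates are not independent.

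Colon against ileum was the comparison in which p53 targets were called by limma. Of the 10 genes, which all passed the filter over 24 libraries, 3 differed between colon and ileum, where 33.5% of the 19588 genes tested did. Trp53inp1 was higher in colon in 12 of 12 mice. It had 648.0 to 3482.2 normalised reads in colon (median 1816.2) and 195.1 to 691.9 in ileum (median 399.0), and the lowest colon library (648.0, KO early mouse 117) was below only the highest ileum library (691.9, KO late mouse 50). The log2 difference of colon against ileum, averaged over the 4 groups, was 2.23 ± 0.18 (SE, 95% interval 1.85 to 2.61, adjusted p = 9.87e-10 by limma).

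Eda2r was higher in colon in 11 of 12 mice, at 0.79 ± 0.22 (adjusted p = 0.00795 by limma), from 18.7 to 49.1 normalised reads in colon and 10.4 to 32.6 in ileum. The exception was WT non-irradiated mouse 73, with 23.3 in colon and 29.8 in ileum. Mdm2 was lower in colon in 11 of 12 mice, at -0.48 ± 0.11 (adjusted p = 0.000949 by limma), from 618.0 to 1119.3 normalised reads in colon and 787.9 to 1471.4 in ileum. The same mouse was the exception again, with 1119.3 in colon and 1066.2 in ileum. Cdkn1a was higher in colon in 7 of 12 mice, at 0.09 ± 0.23 with an interval of -0.39 to 0.58. Zmat3 was at 0.00 ± 0.10 and Bax at -0.48 ± 0.31 (adjusted p = 0.269 by limma). This fit leaves out the pairing of colon and ileum by mouse. With mouse as a block, Bax was at -0.48 ± 0.19 (adjusted p = 0.0532 by limma), still not called. Higher calls made up 15.0% and lower calls 18.5% of all genes, so 3 of 10 is near the share of all genes that differed between the tissues.

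**Figure D3:**
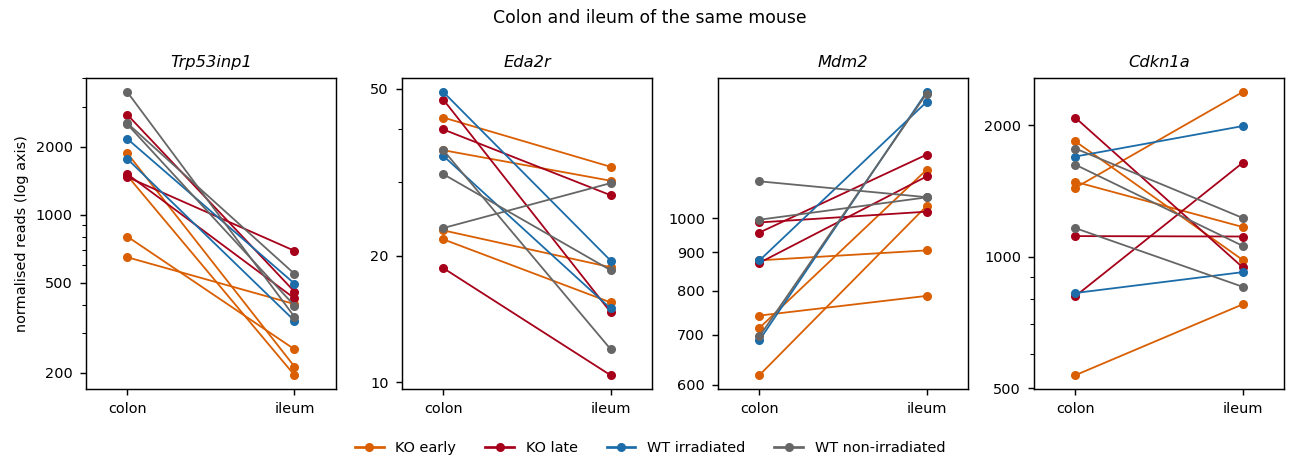
Normalised reads of Trp53inp1, Eda2r, Mdm2 and Cdkn1a in colon and ileum, with a line for each of the 12 mice, on log axes that differ between panels. Trp53inp1 is higher in colon in every mouse and Eda2r in all but WT non-irradiated mouse 73. Mdm2 is lower in colon in all but the same mouse, and Cdkn1a differs in either direction.

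Whether a group's difference from WT non-irradiated mice was itself different between the tissues was tested as an interaction. No p53 target of the 10 was called, in WT irradiated mice (0% of 19588 genes called by limma, 172 at an unadjusted p under 0.05), in KO early mice (0.143%, 28 genes) or in KO late mice (0.311%, 61 genes). None of the 10 had an unadjusted p under 0.05 in any of these fits, which leave out the pairing by mouse, and edgeR called none of them either. The fit that kept each mouse as a block called 0, 261 and 775 genes in the same order of groups, and again none of the 10. In that fit Ccng1 in KO late mice was at -0.65 ± 0.30, with an unadjusted p of 0.0468 and an adjusted p of 0.169 by limma. Cdkn1a, for instance, had a colon minus ileum difference of -0.53 ± 0.60 in KO early, -0.49 ± 0.64 in KO late and -0.72 ± 0.71 in WT irradiated mice. Trp53inp1 had -0.63 ± 0.47, -0.89 ± 0.50 and -0.47 ± 0.56 in the same order, so its lower estimates in colon were not shown to differ from those in ileum.

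Of 34 further p53 targets in 5 lists by role, 1 was called by limma in any comparison within a tissue, in KO early against WT non-irradiated colon, where 0.559% of all genes were called. Plk2, a polo-like kinase of the growth arrest list, had 168.6, 201.7, 166.2 and 206.6 normalised reads in KO early colon, against 503.3, 422.8 and 424.3 in WT non-irradiated colon. The groups lay far apart, with a log2 fold change of -1.27 ± 0.25 (adjusted p = 0.0364 by limma), and edgeR (-1.27, adjusted p = 0.0357) and DESeq2 (-1.23, adjusted p = 0.00018) also called it. DESeq2 called Plk2 in KO late against KO early colon as well (0.97, adjusted p = 0.0203). It further called Rps27l in KO early against WT non-irradiated colon (0.77, adjusted p = 0.0432) and Xpc, which recognises damaged DNA, in KO late colon against WT non-irradiated (-0.80, adjusted p = 0.0235) and WT irradiated colon (-0.85, adjusted p = 0.0395). These DESeq2 calls were made by neither limma nor edgeR. Of all 19145 genes tested in colon, DESeq2 called 501 in KO early against WT non-irradiated mice and 206 in KO late against KO early. It called 1251 in KO late against WT non-irradiated and 798 against WT irradiated colon. The call of Plk2 in KO early colon was lost in limma without any 1 of KO early mice 100, 117, 118 and 120, KO late mouse 49 or WT non-irradiated mice 72 and 73, where adjusted p reached 0.189, while the estimate stayed between -1.33 and -1.19. Without mice 100 and 73 together it was -1.27 with an adjusted p of 0.197. The dissociation stress genes were at lower estimates in the same libraries, as given above, and their part in the Plk2 value was not tested. In KO early colon against WT non-irradiated colon the 34 genes had a median of -0.29, with 21 of 34 below 0, and in WT irradiated mice against WT non-irradiated mice a median of -0.13 in colon and 0.05 in ileum, with none called.

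Between colon and ileum, 12 of the 34 were higher and 6 lower in colon, against 15.0% and 18.5% of all genes. Sesn1, the sestrin related to Sesn2, was lower in colon in 12 of 12 mice, at -2.11 ± 0.12 (adjusted p = 1.1e-12 by limma), with 302.8 to 628.0 normalised reads in colon and 1268.0 to 3581.3 in ileum, where no libraries overlapped. Sesn2 itself was at 0.14 ± 0.19 and was not called. In the growth arrest list, Plk3 was at 1.30, Plk2 at 1.04 and Btg2, an antiproliferative gene, at 0.89. Of 8 dissociation stress genes 4 were higher in colon and 0 lower, with Dusp1 at 1.78, Egr1 at 1.26, Jun at 0.86 and Fos at 0.82. Of the 7 epithelial markers 1 was higher and 2 lower, with Vil1 at -1.46. Of the markers of other cell types, Itgam of the leukocyte list was lower (-1.56) and Pecam1 of the stromal and endothelial list higher (0.71), the only calls among 9 and 8 markers. The part of these lists in the differences between the tissues was not tested. In the cell death list, Apaf1, the scaffold of the apoptosome, was at -0.95, Pidd1 at -0.80 and Perp at 0.42. Rchy1 (0.43) and Rfwd2 (0.40), ubiquitin ligases that act on p53 beside Mdm2, and Polk, a DNA polymerase that copies past lesions (0.67), were higher in colon, as was the adenylate kinase Ak1 (1.68), while the ribosomal protein gene Rps27l was lower (-0.61).

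Upstream of these genes, Trp53 was lower in colon at -0.57 ± 0.14 (adjusted p = 0.00308 by limma), as was Brca1 (-0.52), which serves repair of DNA breaks. Of the 12 genes of p53 and DNA damage signalling 1 was higher and 5 were lower. This count and those of the lists that follow stand beside 15.0% of all genes higher and 18.5% lower in colon, and they were not tested against that share. Of the 10 genes of the BCL2 family tested, 5 were higher and 3 lower, among them Bik (1.76), Bcl2l11, which encodes BIM (1.23), and Mcl1 (0.68). The inhibitors of cyclin-dependent kinases other than Cdkn1a were led by Cdkn2b (-1.38), Cdkn2c (-0.51) and Cdkn1b (0.42), with 1 of 5 tested genes higher and 2 lower. In the integrated stress response, Nupr1 was at 2.33, Sesn3 at 0.94 and Trib3 at -2.45, with 6 of 12 genes higher and 2 lower. Of 12 cell cycle genes 9 were lower in colon, among them Top2a (-0.93), Mcm6 (-0.86) and Aurkb (-0.78), and all 4 stem cell markers were lower, with sums of 589 to 958 normalised reads in colon groups and 1516 to 8733 in ileum groups. Olfm4 had by far the largest difference of these markers, at -6.33, against -1.22 for Ascl2, -1.05 for Smoc2 and -0.70 for Lgr5. Beside Plk2, limma called no gene of these further lists in a comparison within a tissue.

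The p53 targets also differed between mice of the same group, and part of that went with receptor reads. Within groups, several of the p53 targets fell as receptor reads rose, in a fit that was added after the data had been seen. In colon, per standard deviation of 279.9 RPM of receptor reads, Bax changed by -1.03 ± 0.23 (adjusted p = 0.00229 by limma), Cdkn1a by -0.74 ± 0.19 (0.00579), Sesn2 by -0.58 ± 0.17 (0.00969), Bbc3 by -0.62 ± 0.21 (0.0218) and Mdm2 by -0.28 ± 0.10 (0.0342), all on the log2 scale. In ileum, per standard deviation of 170.5 RPM of receptor reads, Cdkn1a changed by -0.58 ± 0.09 (adjusted p = 0.000449 by limma) and Bax by -0.73 ± 0.15 (0.00168). Trp53inp1, Ccng1, Zmat3 and Eda2r were called in neither tissue. Such slopes were common, since 50.8% of all genes tested in colon and 38.1% in ileum had a called slope, so 5 of 9 and 2 of 9 p53 targets are near the background. Receptor reads differed between groups as well as within them, and their part in the group comparisons was not tested beyond the fits with the covariate given here.

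**Figure D4:**
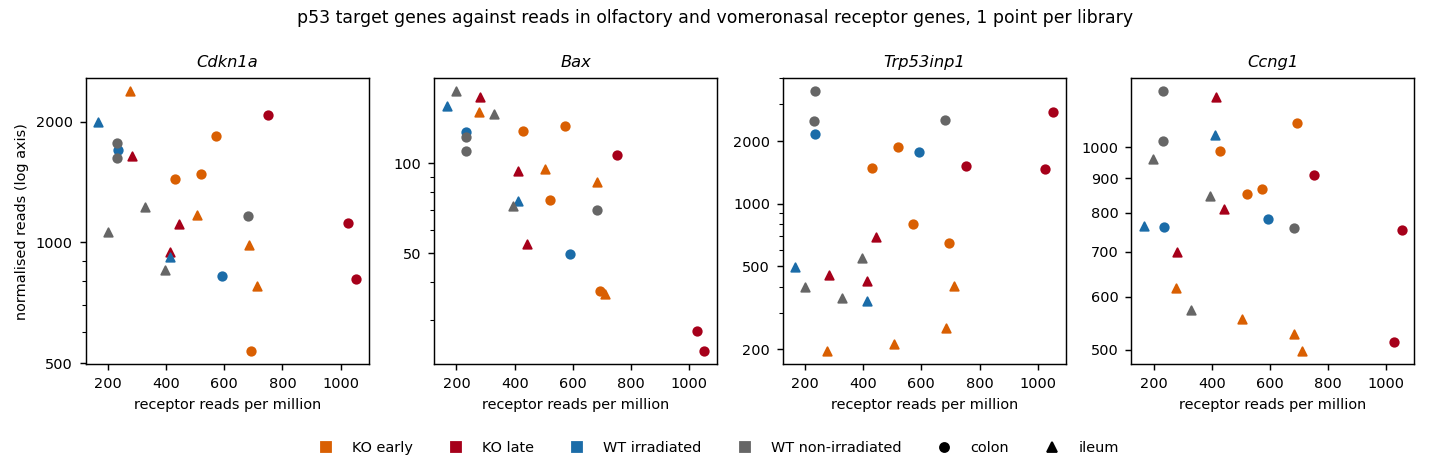
Normalised reads of Cdkn1a, Bax, Trp53inp1 and Ccng1 (log axes) against RPM of receptor reads, with 1 point per library, colours for groups, circles for colon and triangles for ileum. Bax is lowest in the KO late colon libraries of mice 49 and 50, which have the most receptor reads. The Trp53inp1 circles lie above the triangles, apart from the lowest circle and the highest triangle.

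The 10 genes did not vary as a block. Over the 24 libraries, after each tissue was centred on its mean, the 45 pairs of p53 targets had Pearson correlations from -0.60 (Eda2r with Bax) to 0.76 (Cdkn1a with Bax), with a median of 0.19 and 32 of 45 above 0. Cdkn1a, Bax, Bbc3, Sesn2 and Zmat3 correlated with each other at 0.57 to 0.76. Mdm2 was at 0.07 with Bbc3, 0.13 with Bax, 0.36 with Sesn2 and 0.37 with Cdkn1a, and its highest value was 0.51, with Trp53inp1. Eda2r was below 0 with 8 of the other 9 genes. These values describe the libraries, since the genes of a library share its depth, dissection and receptor reads. The part of these in the correlations was not tested. Among the 10869 genes that averaged 100 normalised reads or more, the profiles most like the mean of the 10 were those of Wipi2 (0.92), Il22ra1 (0.91), Mef2d (0.91), Mau2 (0.91) and Prkcd (0.90), and those most like Cdkn1a alone were Lasp1 (0.95), Pdlim2 (0.94) and Dedd2 (0.94).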

How the data were processed

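Single-end 50-base reads were made from 24 libraries, per the labels' protocols. The submitters' processing notes name bcl2fastq, HISAT 0.1.6, HOMER and build mm9. The deposited signal per gene is each library's reads over its own size factor, given by the authors with 1 decimal. All low values, up to 20 reads, were whole reads within 0.05, so reads could be recovered. Nothing read here states whether counting used strand, so overlapping and antisense genes cannot be told apart. The labels give polyA RNA as the molecule beside a total RNA kit.

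Since the values are normalised and not counts, limma 3.58.1 with a trend (R 4.3.3) was run on log2(value + 1), which understates fold changes of low genes. Genes needed 10 normalised reads in 2 libraries. The 12 libraries of a tissue were fitted as 4 groups, and all 24 as 8 groups for colon against ileum and the interactions. A call was a Benjamini-Hochberg adjusted p under 0.05 over all genes tested, in 18 comparisons. The alternatives were edgeR 4.0.16 and DESeq2 1.42.0 on the recovered reads, a pseudocount of 10, no filter, TMM scaling, receptor reads as a covariate, only the groups compared, mouse as a block and each mouse left out. The limma fit was tested on simulated data, for KO late against WT non-irradiated mice within each tissue. The alternatives and the fits of both tissues together were not tested in that way. Colon and ileum are paired by mouse per the labels. Over genes, the correlation of the tissues' deviations from their groups was -0.36 to 0.56 in 10 mice (WT irradiated mice left out), with a median of 0.22, and exceeded 0.1 in 5. Chi-square per gene was at least 12.6 in all 276 pairs of libraries, so none was a copy of another.

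The 10 genes and all lists were chosen with earlier results of these data known. Beyond the 10, the genes named from the functional lists are the up to 3 called by limma with the smallest p in each list and comparison, apart from 1 that is not reported here, and likeness adds those of most similar profile. Marker genes and further calls by DESeq2 are named outside that rule, chosen after their values were seen. Exon lengths came from GENCODE vM21 and promoters from RefSeq, neither in build mm9.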

Additional observations from a re-analysis of the deposited data

Results flagged for a closer look

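In the 2 groups of 4 mice, 37 named genes were searched for a single library far from the other 3, in 74 combinations of gene and group. Chance gives such a library in about 1 of 20 combinations, and 5 of 74 were found. All 5 were the ileum library of KO early mouse 100, which gave 29.4% of its reads to Rn45s, and none was one of the 10 p53 targets. Plk2 had 263.8 normalised reads in that library and 66.5 to 100.2 in the other 3. Apaf1 had 4888.0, against 3805.5 to 3910.1 in the others. Polk was lowest there, with 153.0, against 245.8 to 251.7. Mcl1, an inhibitor of cell death of the BCL2 family, had 4098.9, against 2323.4 to 2406.5. Cdkn2b, an inhibitor of cyclin-dependent kinases, had 1212.6, against 621.7 to 654.8.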

How the results depend on the processing

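The number of p53 targets called within a tissue was 0 by limma and edgeR in all 14 comparisons. Under DESeq2 it was 1 in KO early against WT non-irradiated colon and 1 in KO late against KO early ileum, Trp53inp1 both times. With receptor reads as a covariate it was 1 in KO early against WT non-irradiated ileum (Cdkn1a) and 1 in KO late against KO early ileum (Trp53inp1). Leaving out 1 mouse at a time gave 0 to 1 in KO early against WT non-irradiated colon, with Trp53inp1 called without WT non-irradiated mouse 75. The cause was not tested. The share of all genes called is not given for the fits with the covariate or without a mouse. Those calls thus stand without a background. Of 3228 values of single genes under the alternatives, 3126 kept their side of the threshold within the spread, 97 moved, 5 passed the threshold and 0 reversed, while 225 had the other sign with neither value past the threshold. The 3 colon against ileum calls held under every alternative run, without mice 100 and 73 together as well, an alternative added after the data were seen.

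Counts of all genes called depended on the tool. In colon, limma, edgeR and DESeq2 called 107, 84 and 501 genes in KO early and 476, 411 and 1251 in KO late against WT non-irradiated mice, and 31, 31 and 185 for the mean of the 3 groups. Against WT irradiated colon they called 39, 32 and 236 genes in KO early and 197, 163 and 798 in KO late, and 1, 0 and 206 in KO late against KO early. With mouse as a replicate block, colon against ileum had 8042 genes called, against 6556 without it, and the same p53 targets, 3, were called, and the block called 0 in the interactions, where it raised the genes called to 261 in KO early and 775 in KO late, against 28 and 61 without it. A group of 2 irradiated mice and 8.32 M to 18.7 M reads per library limit what differences could be seen.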
